A study of Mus musculus with 6 samples.

Results

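The genes described here mark cells that lie beneath or pass through the lining of the bladder but do not belong to it: fibroblasts and other mesenchyme, smooth muscle, blood vessel endothelium and leukocytes. They were chosen by name, 45 of the 21883 protein-coding genes with an annotated span, and divided into 15 fibroblast and mesenchyme genes, 7 smooth muscle genes, 10 endothelial genes and 13 leukocyte genes. The cells were urothelial cells sorted as GFP+, DAPI- from peeled mouse urothelium, assayed by ATAC-seq, in which a transposase cuts and tags accessible DNA. There were 3 Stag2-KO and 3 Stag2-WT libraries, both groups given TMX in the diet to induce recombination and both taken 1 week after induction, with 50000 cells per condition and all in batch 1. The labels give neither the driver of the recombinase, nor the age of the mice, nor whether a library pooled animals. They call the libraries biological replicates, and p-values here rest on the spread among those 6.

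STAG2, the protein lost in KO cells, is part of cohesin, a ring-shaped complex that pairs sister chromatids and folds chromatin into loops. A gene used by a single lineage is usually packed in closed chromatin in other lineages. Its start site and enhancers are opened by the transcription factors of the lineage that uses it. Examples are PU.1 (Spi1) in myeloid cells and ERG, SOX17 and SOX18 in endothelium. In smooth muscle, myocardin (Myocd) is a transcriptional coactivator of the lineage's genes. Promoters rich in CpG dinucleotides tend to be accessible in many cell types whether or not the gene is used, whereas CpG-poor promoters tend to open only in the cells that use them.

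Each library came with its own list of accessible intervals, 260462, 149153 and 177320 distinct intervals in KO replicates 1 to 3, against 168561, 174275 and 165214 in WT replicates 1 to 3. Intervals were ranked within a library by the authors' fold over the local background, so that rank 1 is the most enriched. Rank 25000 stood at a fold of 11.9 to 19.7 and rank 100000 at 3.65 to 5.30 over the 6 libraries. A locus, meaning the gene's mm10 span widened by 10 kb on either side, was called open where its best interval was within rank 25000 in all 6 libraries, closed where no interval was within rank 100000 in any library, and weakly open otherwise. Loci were also described at the annotated start site, or, where no start site was in the tables used, at the better ranked of the 2 ends of the span, within 500 bp. Where a start site was given, the ends of the span were not read, even if that start lay inside the span. A mean rank is the geometric mean over the 6 libraries, with a missing interval set 1 past rank 100000. The libraries did not all resemble their own genotype most: over 100565 regions, the log2 ranks of KO replicate 3 correlated at 0.936 with WT replicate 3 and 0.903 with WT replicate 1, but at 0.862 and 0.830 with KO replicates 1 and 2. WT replicate 2 correlated at 0.890 with WT replicate 3, 0.879 with KO replicate 2 and 0.816 with WT replicate 1. Results without either library are therefore given beside those they change. At the lower end of Stag2 itself, the ranks were 16287, 20829 and 26329 in KO, against 29586, 34076 and 28720 in WT. An interval at a gene end need not lie in deleted sequence, so it does not check the labels.

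Most lineage loci and most of their start sites or ends fell in the weakly open class, and 1 of the 45 start sites or ends was open. Of the 45 loci, 15 were open, 27 weakly open and 3 closed, against 47.3% open, 36.3% weakly open and 16.4% closed among all protein-coding genes. The 33.3% of member loci that were open was thus below the share of all genes, and the 6.67% closed was lower too. At start sites or gene ends, 1 member was open, 28 were weakly open and 16 were closed. All protein-coding genes had 21.3% open, 45.3% weakly open and 33.4% closed ends. The median mean rank was 21949.5 for member loci and 17381 for all loci, and 89608.5 for member ends and 50414 for all ends. Among the 16 closed ends, Pdgfra and Erg were read at starts inside their spans. A Pdgfra region lay at the lower end of the span (mean rank 70723). An Erg region was centred 973 bp from the upper end of its span, the 5′ end on the minus strand (mean rank 27026). In bulk chromatin, a few cells of another lineage and weak accessibility in many cells cannot be told apart.

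For comparison, 30 urothelial genes were read in the same way. By fold, 14 of their loci were open and 16 weakly open, and 3 of their ends, those of Upk3a, Upk3b and Cdh1, were open. When intervals were ranked by the authors' −log10 p instead, which also grows with the height of the coverage, 27 of 30 urothelial loci and 10 of 30 urothelial ends were open. The class counts of the members barely moved with that ranking, at 16 open, 26 weakly open and 3 closed loci. Their open ends numbered 2, those of Vim and Spi1. The median mean rank of member loci was 26499.5 by −log10 p and 21949.5 by fold, while that of all loci was 13963 and 17381. Among all genes the ranking by −log10 p gave 55.7% open loci and 32.8% open ends. Urothelial loci, at 90.0% open, thus stood above all genes by the ranking on p, which was applied to them after the data were seen, while their ends, at 33.3% open, were level with all genes. By fold, 33.3% of member loci and 46.7% of urothelial loci were open, the second share close to that of all genes, and 3 of 30 urothelial ends were open against 21.3% of all ends. Member loci held 7.83 regions of the rank lists per 100 kb, close to 8.24 over all genes and below 17.7 at urothelial loci. By lineage, the density was 11.1 at fibroblast, 8.56 at smooth muscle, 6.73 at endothelial and 5.50 at leukocyte loci.

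**Figure D1:**
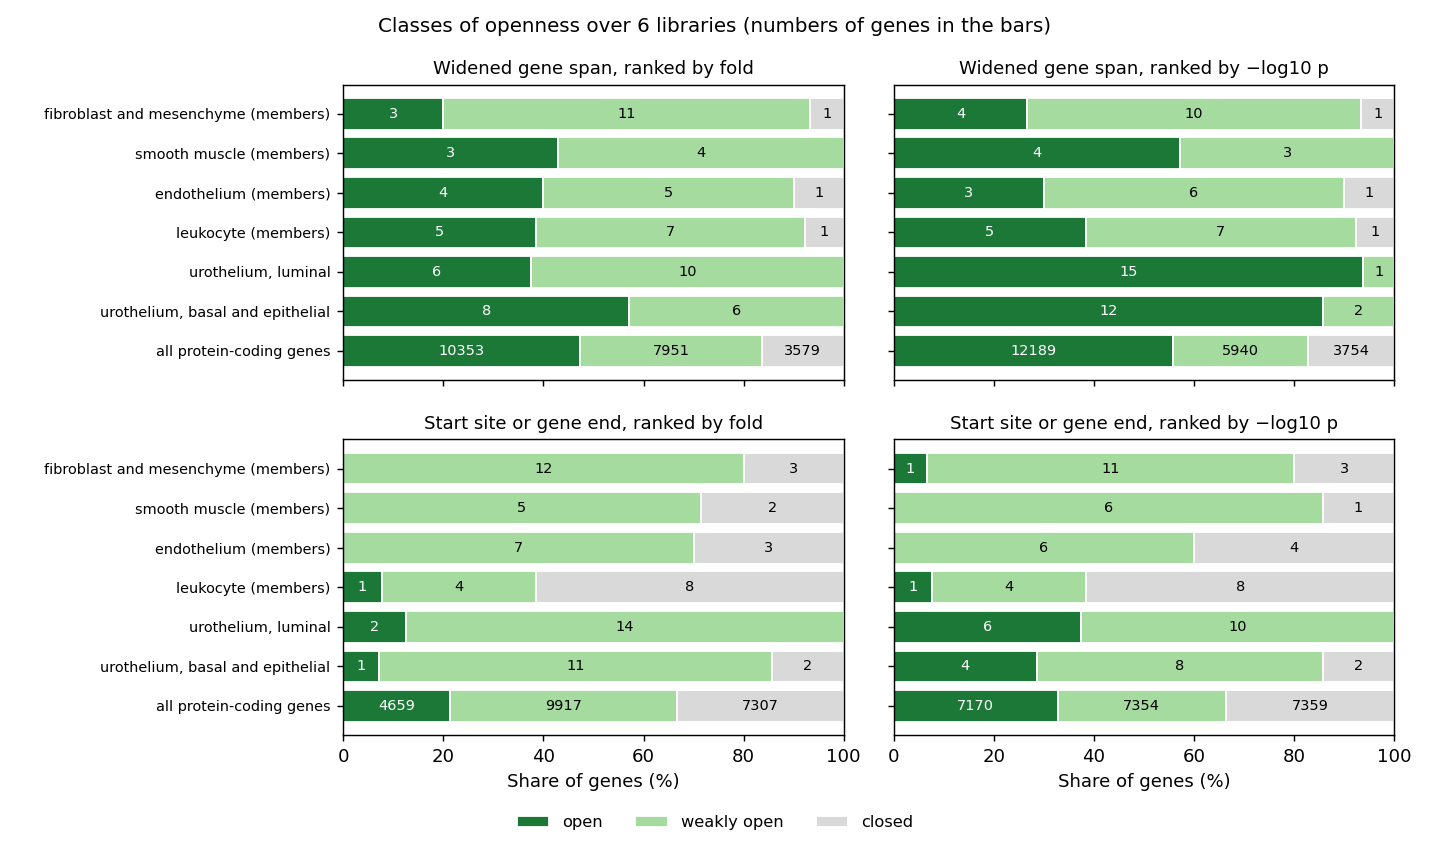
Share of genes (%, horizontal axis) that were open, weakly open or closed over the 6 libraries, for each lineage, for urothelial genes and for all protein-coding genes, with numbers of genes in the bars; upper panels show widened spans and lower panels start sites or gene ends, ranked by fold (left) or −log10 p (right). Open member ends numbered 1 of 45 by fold and 2 of 45 by −log10 p, and open urothelial loci 14 and 27 of 30.

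Of the annotated member start sites, 4 promoters are printed, those of the 2 with the best mean rank and of 2 with no interval in any list at any rank. Each is the 250 bases before the start site, 5′ to 3′ on the gene's strand, from RefSeq promoters of build GRCm38.p6, whose coordinates are those of mm10, with CpG dinucleotides in capitals. Vim, on the plus strand at chr2:13574061-13574310, and Flt1, on the minus strand at chr5:147726012-147726261, had the best ranks. Pdgfra, on the plus strand at chr5:75152001-75152250, and Ptprc, on the minus strand at chr1:138175127-138175376, had no interval within 500 bp of these start sites. The annotated Pdgfra start lies inside its span. The lower end of that span, which is the 5′ end on the plus strand, had an interval in all 6 libraries at a mean rank of 70723.
Vim: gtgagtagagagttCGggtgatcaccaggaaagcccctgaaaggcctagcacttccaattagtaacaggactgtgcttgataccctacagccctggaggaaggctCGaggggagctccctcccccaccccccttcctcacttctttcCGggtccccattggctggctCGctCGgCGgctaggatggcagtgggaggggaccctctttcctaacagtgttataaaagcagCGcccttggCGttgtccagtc
Flt1: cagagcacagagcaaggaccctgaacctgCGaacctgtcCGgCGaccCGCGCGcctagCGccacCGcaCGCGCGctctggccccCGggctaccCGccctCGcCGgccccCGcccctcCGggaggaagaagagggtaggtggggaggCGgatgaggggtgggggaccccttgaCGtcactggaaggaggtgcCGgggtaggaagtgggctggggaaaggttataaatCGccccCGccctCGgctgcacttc
Pdgfra: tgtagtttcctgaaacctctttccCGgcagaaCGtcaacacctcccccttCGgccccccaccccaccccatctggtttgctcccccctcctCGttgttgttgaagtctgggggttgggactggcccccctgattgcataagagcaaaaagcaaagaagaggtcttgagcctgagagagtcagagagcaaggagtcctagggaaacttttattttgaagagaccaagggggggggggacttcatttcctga
Ptprc: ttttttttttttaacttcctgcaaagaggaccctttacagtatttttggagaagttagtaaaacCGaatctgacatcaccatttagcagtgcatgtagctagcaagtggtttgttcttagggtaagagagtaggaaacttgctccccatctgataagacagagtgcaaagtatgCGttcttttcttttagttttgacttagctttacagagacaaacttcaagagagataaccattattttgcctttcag
Over the 300 bases of the table's promoter window, which adds 50 bases after the start, Flt1 held 29 CpG and Vim 11, while Pdgfra held 5 and Ptprc 2.

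Of the 45 members, 26 had an entry in that promoter table, as did 17491 of all genes. The median CpG content, as observed over expected from base composition, was 0.324 in the 26 member promoters and 0.588 in all promoters. Among all genes it was 0.787 at open, 0.735 at weakly open and 0.172 at closed start sites. The 16 weakly open members had a median of 0.445 and the 10 closed members 0.293. These 10 include Pdgfra and Erg, whose annotated starts lay inside their spans. Ikzf1, the gene of the lymphoid zinc finger factor Ikaros, was the exception among leukocyte genes with a ratio of 1.06, and Twist1 and Twist2, mesenchymal helix-loop-helix factors, had 0.827 and 0.803. Col3a1, a fibrillar collagen gene, had no CpG in its window and was still weakly open. Motifs were counted on both strands by exact letters. TATAAA was present in 19.2% of member promoters and 13.1% of all, CCAAT in 26.9% and 38.9%, GGGCGG in 38.5% and 47.1%, and GAGGAA, the core bound by PU.1, in 53.8% and 27.4%. The CArG box of serum response factor, in its exact consensus, was in 0 of 26 member promoters and in 1.52% of all. Only 3 of the 26 belonged to smooth muscle genes, and boxes that depart from the consensus were not counted. GAGGAA was not confined to leukocyte genes, since 4 of 7 leukocyte, 6 of 10 fibroblast, 3 of 6 endothelial and 1 of 3 smooth muscle promoters held it. A match describes the letters in these windows only.

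**Figure D2:**
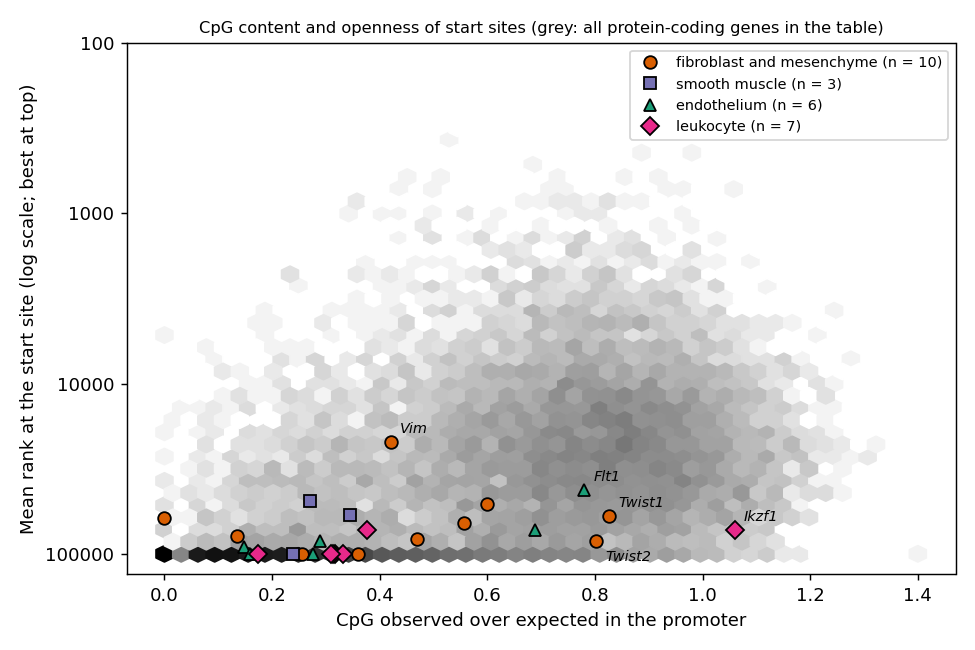
Mean rank at the start site (vertical axis, log scale, best at the top) against the observed over expected CpG ratio of the promoter (horizontal axis), for 26 members (coloured by lineage) and for all 17491 promoters in the table (grey hexagons, darker with more genes). Vim had the best rank of the members at a ratio of 0.421, and Ikzf1 the highest ratio, 1.06, at a mean rank of 72844.

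Fibroblast and mesenchyme genes had the smallest share of open loci of the 4 lineages, with 3 of 15 loci open, 11 weakly open and 1 closed. Fbln1, which encodes the matrix protein fibulin 1, had the strongest interval, inside the gene at chr15:85281991-85282481. It ranked 3351, 6864 and 1413 in the KO libraries, against 830, 4898 and 1106 in the WT libraries, with a fold of 26.2 to 32.7. The genotypes overlapped. By −log10 p the locus ranked 901, 1158 and 173 in KO, against 382, 216 and 189 in WT. Its start site was weak in comparison, at 40783, 26783 and 64018 in KO, against 71071, 62777 and 57534 in WT.

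Twist2 had its best interval in the gene body at chr1:91816559-91817221, with ranks of 7677, 6219 and 3329 in KO, against 3166, 2831 and 2528 in WT. Every WT library ranked better there, by a narrow margin in KO replicate 3. A second Twist2 interval at chr1:91823417-91823950 also lay within rank 25000 in all libraries, at a mean rank of 20588. Pdgfra, the platelet-derived growth factor receptor that marks fibroblasts, was open through several intervals, none at the annotated start. Its locus ranks were 10168, 6511 and 22194 in KO, against 21548, 8898 and 13320 in WT, with overlap between the genotypes. The best Pdgfra interval by mean rank, 14681, lay in the gene body at chr5:75166426-75166812, and a weak interval with a mean rank of 70723 lay at the lower end of the span, outside the window of the annotated start.

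The remaining fibroblast loci were weakly open or closed. Vim, the mesenchymal intermediate filament gene, had the best start site of the lineage, at 18925, 27336 and 18712 in KO, against 21600, 26485 and 20193 in WT. It missed the limit of 25000 in 1 library of each genotype. The collagen loci Col1a1, Col1a2, Col3a1, Col6a1 and Col6a2 were all weakly open, with mean ranks between 26650 for Col6a1 and 66070.2 for Col6a2. Thy1, Prrx1, Pdgfrb and Twist1 had mean ranks of 17177, 49876, 50047 and 60275. Dcn, which encodes the proteoglycan decorin, ranked 57915, 98682 and 85162 in KO, against 45661, 77178 and 78415 in WT. Lum, the gene of the related proteoglycan lumican, was closed, and its one interval in any list stood at rank 247733 of KO replicate 1, the longest list.

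Smooth muscle genes had 3 open and 4 weakly open loci and none closed, but no open start site or end. Cnn1, the gene of the actin-binding protein calponin, had its best interval in the flank at chr9:22095875-22096433. That interval ranked 4470, 5102 and 8035 in KO, against 8541, 6782 and 7108 in WT. The start site of Cnn1 was closed, with no interval within rank 100000 in any library. Myh11, the smooth muscle myosin heavy chain gene, had an interval beside the upper end of its span at chr16:14291229-14291771. It ranked 14111, 8971 and 8868 in KO, against 13638, 11415 and 12425 in WT. Here the interval straddled the edge of the 500 bp window, so that only WT replicates 1 and 3 counted it at the gene end. Leaving the edge aside, the interval itself was open in all 6 libraries.

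Actg2, the gene of enteric smooth muscle actin, was open only through an interval at the end of the neighbouring gene Dguok, at chr6:83506435-83507182. It ranked 9037, 16158 and 14386 in KO, against 7349, 19528 and 16488 in WT. Without the flank, or without intervals at the ends of other genes, the Actg2 locus was no longer open. Acta2 and Tagln, the genes of smooth muscle actin and transgelin, had mean ranks of 14823 and 19582 and were each beyond rank 25000 in 1 library, a WT library for Acta2 and a KO library for Tagln. The lowest of the lineage were Myocd, the transcriptional coactivator of smooth muscle genes, and Des, the muscle intermediate filament gene. Myocd ranked 25820, 36335 and 14558 in KO, against 13141, 26844 and 16918 in WT. Des ranked 44273, 31015 and 71441 in KO, against 97765, 44072 and 97457 in WT, and the genotypes overlapped at both.

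Endothelial genes had 4 open, 5 weakly open and 1 closed loci, and no open start site or end. Flt1, which encodes a receptor for vascular endothelial growth factor, had the best interval of the lineage, inside the gene at chr5:147589743-147590311. It ranked 3085, 456 and 3133 in KO, against 6722, 655 and 2635 in WT, with a fold of 19.0 to 44.4. Replicate 2 was the highest library in both genotypes. Pecam1, the gene of the endothelial adhesion molecule CD31, had its best interval in the flank at chr11:106648363-106649070. That interval ranked 3692, 3359 and 1580 in KO, against 1276, 3049 and 4275 in WT. The better Pecam1 end ranked 95006, 121271 and 128106 in KO, against 139784 in WT replicate 3 and no listed interval in WT replicates 1 and 2.

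Tek, which encodes the angiopoietin receptor TIE2, was open at 15772, 23972 and 13619 in KO, against 6131, 13826 and 3721 in WT. By −log10 p it was weakly open. Sox18 was open through an interval at the end of Gm29797, at a mean rank of 21247, and through a flanking interval at chr2:181678808-181679166. Tie1, Cdh5, Erg and Kdr were weakly open, with mean ranks of 17661, 25559, 27026 and 48784. At the low end were Sox17 and Emcn. Sox17 ranked 70533, 73333 and 110338 in KO, against 96898, 96087 and 114315 in WT. Emcn, the gene of the sialomucin endomucin, had no interval within rank 100000. Its best intervals stood at 134291 and 124384 in KO replicates 1 and 3, against 101481 and 141025 in WT replicates 1 and 3.

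Leukocyte genes had 5 open, 7 weakly open and 1 closed loci, with 8 of 13 start sites or ends closed. The start sites or better ends of Ptprc, Cd3e, Cd79a, Adgre1, Itgam, Tyrobp, Cd52 and Laptm5 had no interval within rank 100000 in any library. These include the pan-leukocyte gene Ptprc, which encodes CD45, the T cell receptor subunit gene Cd3e, the B cell receptor subunit gene Cd79a and the macrophage gene Adgre1. The Ptprc locus as a whole ranked 95797, 111301 and 87111 in KO, against 110068, 93182 and 130186 in WT. Adgre1 was closed, with intervals in the whole list of KO replicate 1 alone, the best of them at rank 149481.

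Itgam, which encodes the integrin alpha chain CD11b, nevertheless held the best ranked interval of all 45 loci, a narrow one of 371 bp in the gene body at chr7:128089117-128089487. It ranked 274, 35 and 27 in KO, against 47, 29 and 10 in WT, at a fold of 32.7 to 50.9. It lay 26661 bp from the nearer end of the span, and the start site of the gene was closed. By −log10 p the locus ranked 8615, 10165 and 3091 in KO, against 5021, 4804 and 3728 in WT, so its position among the very best intervals held for fold only. Spi1 was the one member with an open end. The interval at its upper end, chr2:91114979-91115566, ranked 7885, 6729 and 5622 in KO, against 6255, 4816 and 3421 in WT. The tables used give no strand for Spi1, so whether this end is the start was not determined. A second interval in the Spi1 body at chr2:91101408-91101815 ranked 10343, 1405 and 6703 in KO, against 3603, 3189 and 3646 in WT.

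Cd52, Coro1a and Cd79a were open mainly through neighbours. The Cd52 locus, of a leukocyte surface glycoprotein, ranked 2706, 1106 and 1220 in KO, against 1234, 2141 and 1547 in WT, through an interval at the end of Ubxn11 at chr4:134102375-134102917. The best interval near Coro1a, which encodes the actin regulator coronin 1A, lay at the ends of Bola2 and Slx1b with a mean rank of 8093, and that near Cd79a at the end of Arhgef1 with a mean rank of 12638. Coro1a also had an open interval in its own body at chr7:126701013-126701654. Rac2, Csf1r, Tyrobp, Laptm5, Cd3e and Ikzf1 were weakly open, with mean ranks of 14018, 21573, 31439, 44866, 61901 and 72844.

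**Figure D3:**
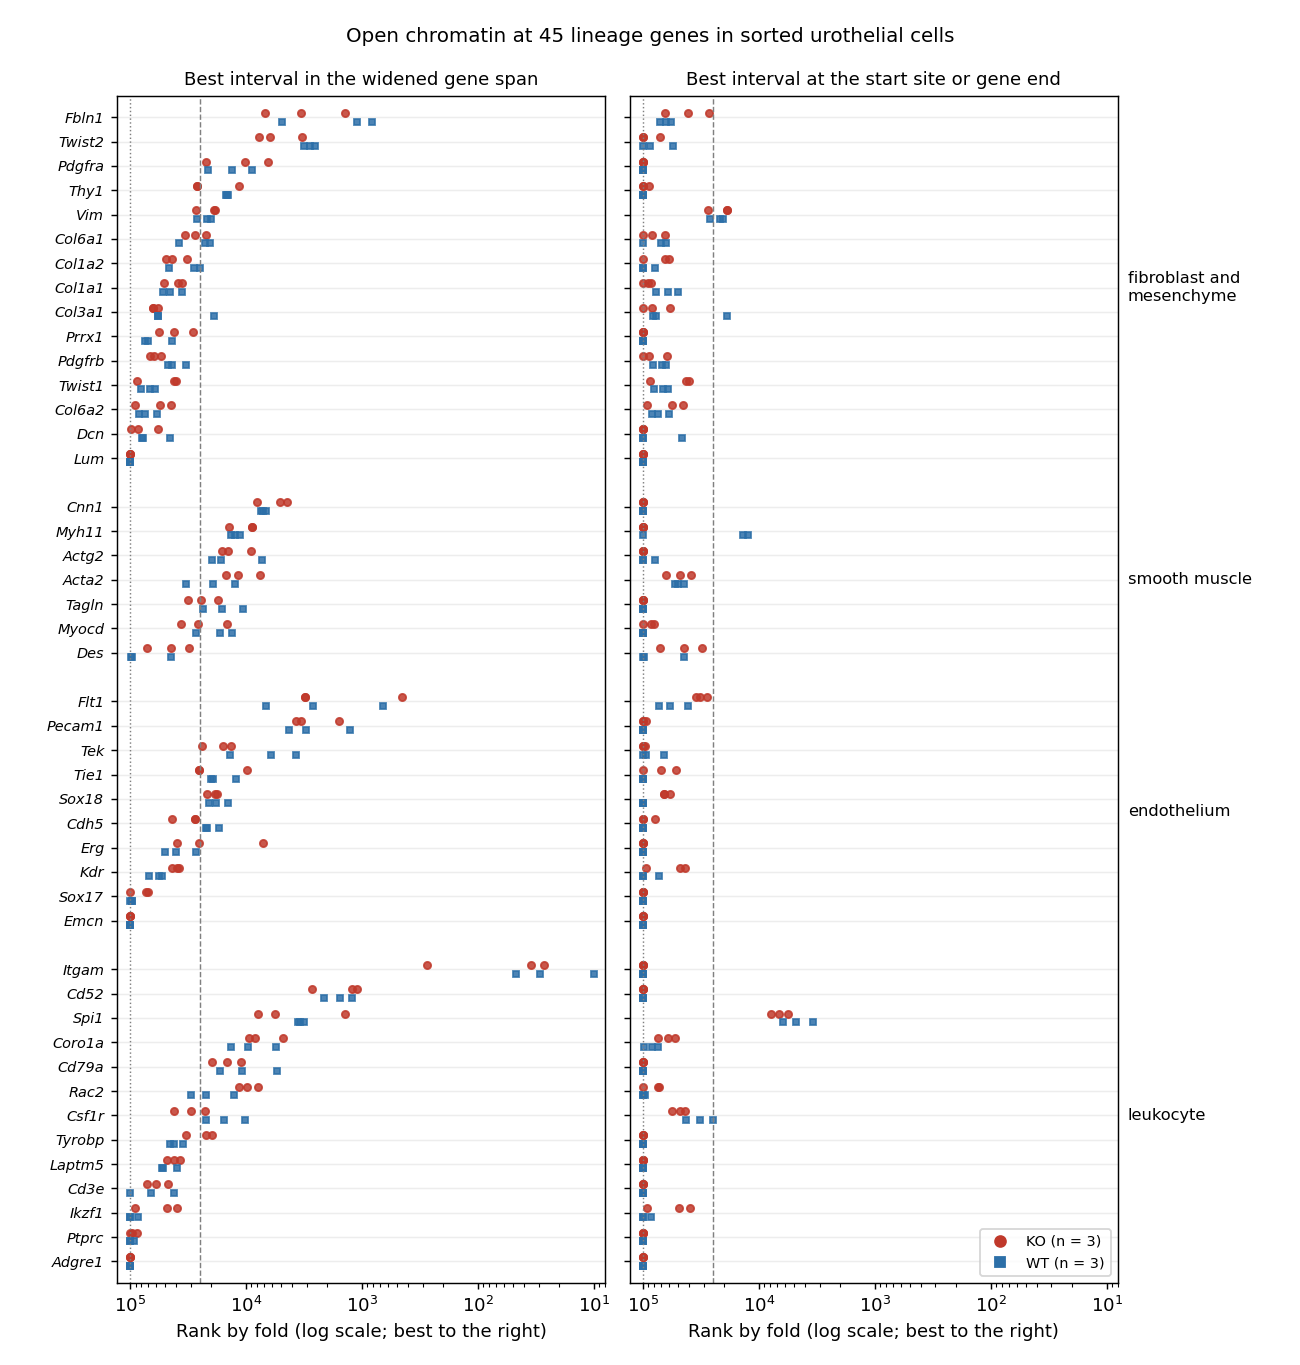
Rank by fold (horizontal axis, log scale, best to the right) of the best interval in the widened span (left) and at the start site or gene end (right) for each of the 45 members, grouped by lineage; circles are the 3 KO and squares the 3 WT libraries, the dashed line is rank 25000 and the dotted line rank 100000, where missing intervals are drawn. Itgam ranked 10 to 274 in its span and had no interval within rank 100000 at its start site, while Spi1 was within rank 25000 in every library at both places.

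The places of the accessible regions were then compared across lineages. The 45 loci held 230 regions, of which 38, or 16.5%, lay at the member's own start or end, level with 16.1% for all protein-coding genes and 15.9% for urothelial genes. Of the 230 regions, 20 were within rank 25000 in all 6 libraries. Of these 20, 2 lay at the member's own start or end (Spi1 and Myh11), 7 at the end of another gene, 7 in the gene body and 4 in the flank. Own starts and ends made up 10% of the open regions of members and 35.5% of those of all genes, but the urothelial genes also had a low share, 14.3% or 3 of 21. Ends of other genes made up 35.0% of the open regions of members and 15.1% of those of all genes. At the 14389 open regions of all genes, counted once for each locus they overlap, gene bodies made up 34.1%, close to the 35.0% of members. Without the flank, 8 member loci were open and 10 closed, against 35.1% open and 23.2% closed for all genes. The 8 were Fbln1, Twist2, Myh11, Tek, Flt1, Itgam, Spi1 and Coro1a. A further 57 genes of the same lineages, not among the 45, had by fold 20 open, 35 weakly open and 2 closed loci, and 1 open, 36 weakly open and 20 closed ends. Ranked by −log10 p, 28 of these 57 loci (49.1%) were open, against 35.6% of member loci. The 1 open end was that of Postn, which encodes the matrix protein periostin, at a mean rank of 387.

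The series asks whether loss of Stag2 changes accessibility in quiescent urothelium, and the members were compared between genotypes by the log2 rank gain, in which a positive value means a better rank in KO. The gain was fitted with limma over all loci, all regions or all gene ends with an interval in at least 3 of the 6 libraries, and p-values were adjusted over all of them. No member passed at an adjusted p of 0.05 in any of the 3 fits. At loci, 0 of 42 tested members were higher and 0 lower in KO, and the share called among all 17838 loci was 0.0% in either direction. At an unadjusted p below 0.05, 4 members were higher and 4 lower in KO, against 5.16% and 4.17% of all loci, and the lowest adjusted p of a member was 0.462. The median gain of the members was 0.06 and that of all loci 0.08, and the median of the members changed sign with some settings (-0.16 against 0.13 for all loci when adjusted for the share of intervals at gene ends). Member gains ran from -1.42 for Itgam to 1.07 for Rac2.

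Among leukocyte loci the members with the smallest p were Ikzf1, Rac2 and Csf1r. Rac2 ranked 9799, 7952 and 11633 in KO, against 12628, 22291 and 29731 in WT, through a flanking interval, and every KO library was ahead. The gain was 1.07 ± 0.40 (± SE, 3 libraries per genotype, limma adjusted p = 0.464), and it was 0.21 with a flank of 5 kb and 0.67 ranked by −log10 p. Ikzf1 ranked 48414, 39285 and 91484 in KO, against 113928, 85867 and 114645 in WT, with KO replicate 3 among the WT values. Its gain was 0.77 ± 0.29 (limma adjusted p = 0.462). Without KO replicate 3 it was 1.12 and passed (adjusted p = 0.0447), in a fit that called 0.338% of all loci higher and 0.507% lower. Adjusted for the share of intervals at gene ends the gain was -0.64 for Ikzf1 and 0.65 for Rac2. That share, among the best 100000 intervals, was 16.3%, 16.4% and 15.7% in KO, against 15.3%, 15.4% and 15.3% in WT, and its part in these gains was not tested. Csf1r, the receptor gene of macrophage colony-stimulating factor, ranked 41526, 29962 and 22498 in KO, against 15598, 22410 and 10302 in WT. The gain was -0.99 ± 0.37 (limma adjusted p = 0.462), and the ranges were separated by a narrow margin. It was -0.43 without the flank or with one of 5 kb, and -0.048 when adjusted for the gene-end share.

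Among endothelial loci, Tek had a gain of -1.34 ± 0.51 (± SE, 3 libraries per genotype, limma adjusted p = 0.464), with its ranks given above overlapping in WT replicate 2. It was -0.67 ranked by −log10 p and -0.19 when adjusted for the gene-end share. In all, every KO library ranked ahead at 3 member loci (Kdr, Rac2 and Tyrobp), against 9.41% of all loci, and every WT library at 4 (Twist2, Pdgfrb, Cdh5 and Csf1r), against 4.91%. By lineage, 6 fibroblast loci had a positive and 8 a negative gain, smooth muscle 5 and 2, endothelium 4 and 5, and leukocytes 8 and 4. Of all 17838 tested loci, 10009 had a positive and 7829 a negative gain.

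**Figure D4:**
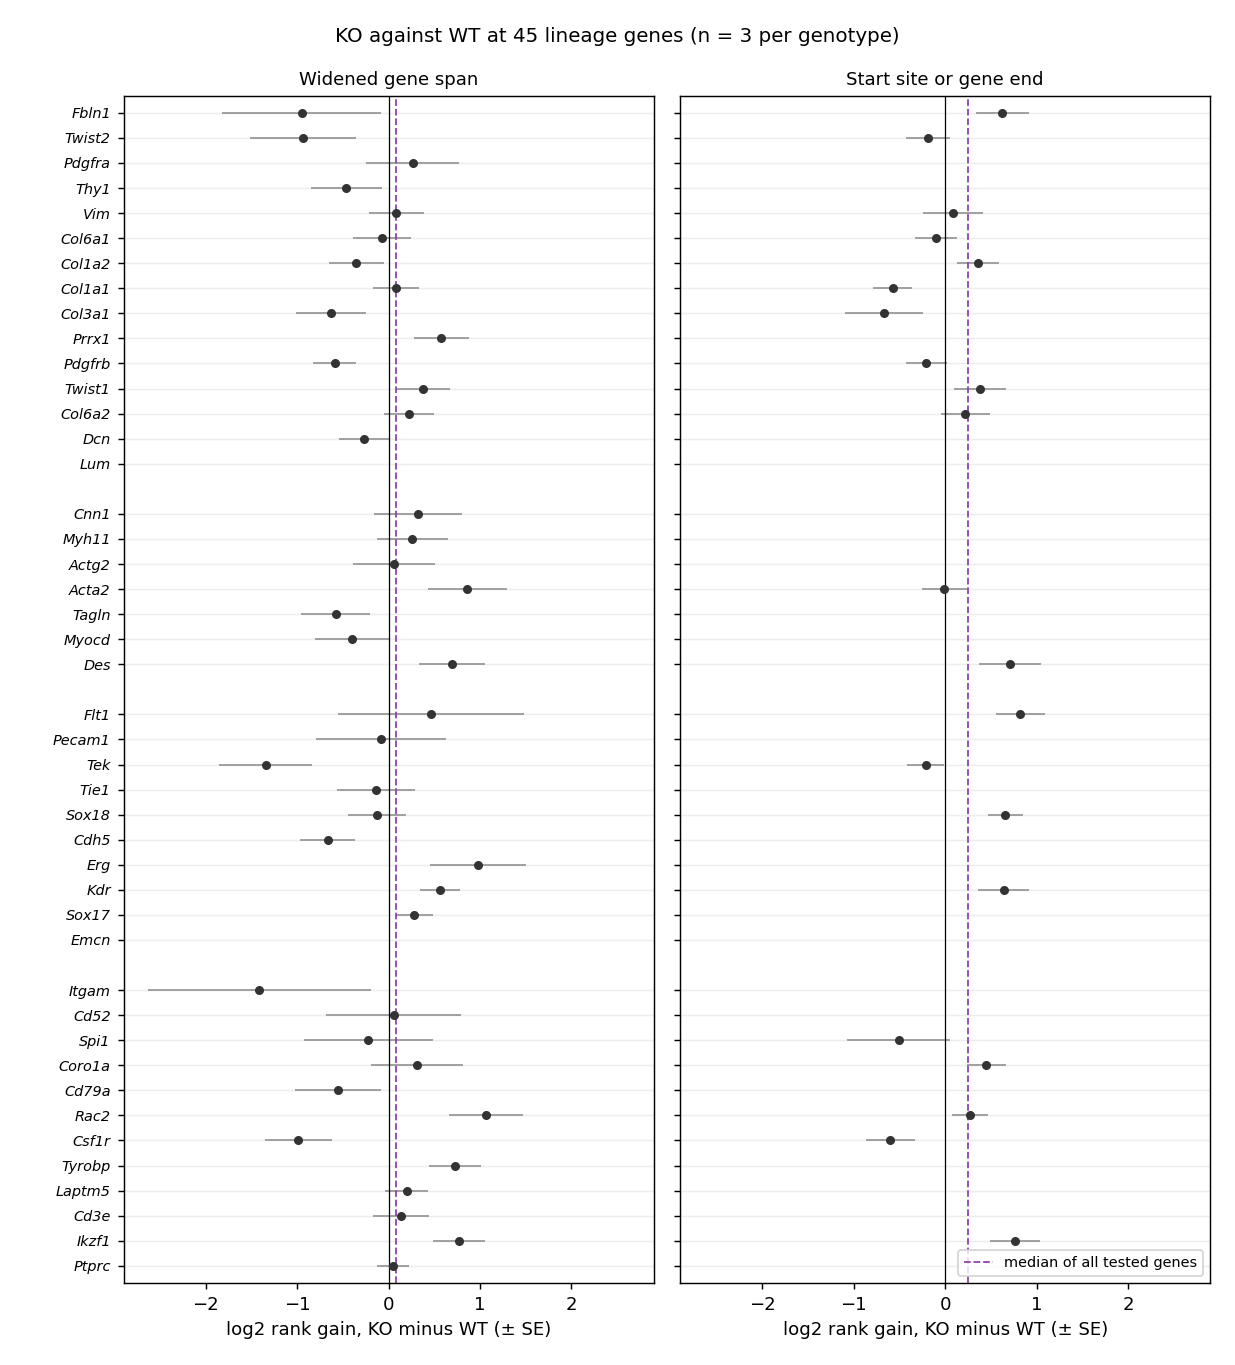
Log2 rank gain, KO minus WT (horizontal axis, points with SE, n = 3 libraries per genotype), of the best interval in the widened span (left) and at the start site or gene end (right) for each member with an interval in at least 3 libraries; positive values mean a better rank in KO and the dashed line is the median of all tested genes, 0.08 at loci and 0.24 at ends. No member passed the adjusted threshold, and Itgam had the widest error at 1.22.

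At start sites and gene ends, 21 of the 45 members could be tested, 10 fibroblast, 2 smooth muscle, 4 endothelial and 5 leukocyte genes. Again 0 were higher and 0 lower in KO after adjustment, while 0.0365% of the 13699 tested ends were called higher and 0.0292% lower. At an unadjusted p below 0.05, 5 members were higher and 2 lower, against 12.1% and 1.42% of all ends. The members had a median gain of 0.22 and all tested ends 0.24, but this closeness depended on the setting. The medians were -0.45 for members and 0.18 for all ends when adjusted for the gene-end share, -0.0018 and 0.29 without KO replicate 2, 0.088 and 0.34 ranked by −log10 p, and 0.80 and 0.35 on linear ranks in units of 10000. Every KO library ranked ahead at 3 member ends and every WT library at 2, against 16.9% and 1.34% of all ends.

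The Flt1 start site, printed above, ranked 32385, 28025 and 34658 in KO, against 72306, 40860 and 58661 in WT, with no overlap. Its gain was 0.82 ± 0.27 (± SE, 3 libraries per genotype, limma adjusted p = 0.317). Without WT replicate 2 it was 1.04 and passed (adjusted p = 0.0408), in a fit that called 2.51% of all ends higher, and adjusted for the gene-end share it was 0.33. At the lower end of Sox18, the interval ranked 65889, 58366 and 66340 in KO and was in no WT list (gain 0.66 ± 0.19, limma adjusted p = 0.312). All 3 WT values in this fit were the same filled-in rank, so the SE draws no spread from the WT libraries. WT replicates 2 and 3 had intervals in the same merged region at ranks 59151 and 89321, just outside the window, and with a window of 1000 bp the gain was 0.35. Col1a1, the type I collagen gene, ranked 90605, 85261 and 109236 in KO, against 60978, 76747 and 50226 in WT at its lower end. The gain of -0.57 ± 0.21 (limma adjusted p = 0.331) became 0.14 with a window of 1000 bp. The lower end of Csf1r ranked 56453, 43329 and 47948 in KO, against 42304, 32040 and 24732 in WT, and its gain was -0.60 ± 0.27 (limma adjusted p = 0.363).

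At the level of single regions, 144 of the 230 member regions could be tested, and 0 were higher and 0 lower in KO, where 0.0119% and 0.00895% of all 100565 regions were called. Of the members' regions, 12 were higher and 7 lower at an unadjusted p below 0.05, against 6.97% and 7.84% of all regions. All KO libraries ranked ahead at 20 and all WT libraries at 13, against 11.4% and 8.17%. With the replicate number as a block, 16 regions were called higher and 16 lower over all regions in place of 12 and 9, none of them at a member.

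The region with the smallest p was a flanking interval of Cd52 at chr4:134096889-134097632, lower in KO in rank at 77252, 70491 and 70304, against 23347, 34645 and 28887 in WT. The gap between the genotypes was wider than the spread within either. The gain was -1.34 ± 0.28 (± SE, 3 libraries per genotype, limma adjusted p = 0.216), and ranked by −log10 p it was -1.86 and passed (adjusted p = 0.0313), where 0.0328% of all regions were called higher and 0.0226% lower. With a rank list of 50000 it was -0.81. A neighbouring interval at the end of another gene, chr4:134092483-134092787, went the other way at 41069, 28811 and 41240 in KO, against 63926, 60333 and 55077 in WT. Cd52 thus had regions with separated ranges in both directions within its widened span.

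A flanking interval of Pdgfra at chr5:75207947-75208551 ranked 76834 and 29052 in KO replicates 1 and 3 and was missing from the best 100000 in KO replicate 2, against 21548, 24430 and 13320 in WT. The gain was -1.66 ± 0.47 (limma adjusted p = 0.263), it was -2.20 and passed without KO replicate 3 (adjusted p = 0.0404), and it was 0.46 when adjusted for the gene-end share. The fit without KO replicate 3 called 0.884% of all regions higher and 1.67% lower, against 2 and 1 of the 138 member regions it tested. In the body of Myh11, the interval at chr16:14237212-14237686 ranked 39283, 33784 and 35556 in KO, against 22014, 14162 and 14427 in WT (gain -1.13 ± 0.34, limma adjusted p = 0.266), and the gain was -0.62 ranked by −log10 p. All 3 of these regions ranked worse in every KO library than in any WT library.

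Higher in rank in KO were regions of Flt1, Tek and Vim, none of which passed. The Flt1 interval at chr5:147601535-147601779 ranked 50769, 53968 and 87816 in KO, against 93824 in WT replicate 2 and no interval within rank 100000 in the other WT libraries. Its gain was 0.65 ± 0.22 (limma adjusted p = 0.273), it was 0.90 and passed without KO replicate 3 (adjusted p = 0.0434, in the same fit that called 0.884% of all regions higher), and it was -0.26 when adjusted for the gene-end share. The Tek interval at chr4:94746290-94746868, in the gene body, ranked 15772, 45020 and 59040 in KO, against 73367 and 83765 in WT replicates 1 and 3 and none in WT replicate 2. Its gain was 1.29 ± 0.43 (limma adjusted p = 0.274). The Tek interval at chr4:94854226-94854880, weakly open with a rank of 28626 in KO replicate 1, had a gain of -1.63 ± 0.54 (limma adjusted p = 0.273). The 2 Tek regions thus had gains of opposite sign. The first was 0.72 without KO replicate 1 and 0.25 when adjusted for the gene-end share. At the start of Vim, the interval at chr2:13574062-13575095 ranked 33668, 37978 and 47227 in KO, against 70674, 58191 and 66007 in WT (gain 0.72 ± 0.27, limma adjusted p = 0.289), and the gain was 0.19 when adjusted for the gene-end share and 0.35 with a rank list of 50000. The stronger Vim interval just upstream, which set the rank of the start site, had overlapping ranges.

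Calls at members under leave-one-out were concentrated in 2 of the 6 fits. Without KO replicate 3, 888 gene ends (6.55%) were called higher and 74 (0.545%) lower, and among the 20 members tested Ikzf1 (gain 1.12, adjusted p = 0.0120), Kdr (0.99, 0.0182) and Fbln1 (0.94, 0.0397) were higher in KO, as was the Ikzf1 region. Without WT replicate 2, 338 ends (2.51%) were called higher and 114 (0.845%) lower, and of the 18 members tested Des (1.10, adjusted p = 0.0273) and Flt1 were among the higher ones. In the fits without the other 4 libraries no member was called at loci, regions or ends. The wider set of 57 lineage genes had 0 called of 54 tested loci and 0 of 32 tested ends, and the urothelial genes 0 of 30 loci and 0 of 26 ends.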

How the data were processed

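ATAC-seq peak lists of 3 Stag2-KO and 3 Stag2-WT libraries were used, 1 list per library. Build mm10 and DiffBind are named in the submitters' processing notes, but only the peak lists were used. Aligner, peak caller and settings were not given in the sources used here. Per peak, the deposited lists hold a fold over local background (a ratio) and a −log10 p, both by the authors, which were used only to rank peaks within a list. They also hold a −log10 q, a display score and a summit position, deposited by the authors, of which the first 2 were not used. The lists do not state read depth. KO replicate 1 starts at a −log10 p of 3 and the other lists at 2.

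Peaks sharing an interval were reduced to their best value. Gene spans and promoters came from RefSeq tables of GRCm38.p6. Regions were merged from the best 100000 intervals per library by overlaps of at least 1 bp, 138957 in all. Genotypes were compared on −log2 ranks in limma 3.58.1 under R 4.3.3 (trend, moderated variances, Benjamini-Hochberg at 0.05), with Python 3.11.15, NumPy 2.4.6, pandas 2.3.3 and matplotlib 3.10.9. The locus test was run on simulated lists, all built from the list of WT replicate 2 with independent noise. These lack the differences in length and the shared deviations of the real lists, so they do not measure its power here. Merging was checked against bedtools 2.31.1.

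The labels number the replicates in both genotypes. Same-numbered libraries deviated together (correlations 0.105, 0.558 and 0.401 over 100565 regions for numbers 1, 2 and 3), against -0.513 to 0.318 for differently numbered libraries, the highest being KO replicate 3 with WT replicate 1. Every same-numbered value was above 0.1, so the numbers were used as a block in an alternative fit, with number 1 the weakest pair.

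The members and lists were chosen with earlier results of these data known. Values in every library are given for the 3 best and 2 worst loci per lineage, the 2 smallest p per direction at loci and ends, and the 3 smallest p per direction at regions, and others were named after their values were seen. Alternatives covered the ranking, limits, flank, window, list length, required libraries, linear ranks, a covariate for the gene-end share, the block and leaving out each library. Alternatives for the classes of gene ends, and the ranking by −log10 p for the urothelial classes, were chosen after seeing the data.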

Additional observations from a re-analysis of the deposited data

How the results depend on the processing

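With limits of 10000 and 50000, 8 member loci were open and 5 closed, and 13 ends were weakly open and 31 closed. With limits of 50000 and the shortest list (149153), 27 loci were open and 16 weakly open, and 2 ends were open. Without the flank, 8 loci were open and 10 closed. With windows of 1000 bp, 2 ends were open and 9 closed. Ranked by −log10 p, 2 member ends, 27 urothelial loci (3 weakly open) and 10 urothelial ends were open. Leaving out each library gave 15 to 16 open, 26 to 27 weakly open and 3 closed member loci, and 1 open, 25 to 28 weakly open and 16 to 19 closed ends.

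Counts of calls over all features (limma) moved as follows. Ranked by −log10 p, 1 locus was higher in KO, and 32 regions were higher and 22 lower, with 1 lower member region. With a rank list of 50000, 2 regions were higher and 2 lower, and 0 ends higher and 1 lower. With an interval in any library, 0 regions were higher and 1 lower, and 0 ends higher and 1 lower. With an interval in all 6, 0 regions were called in either direction. Linear ranks gave 3 ends higher and 2 lower. A covariate for the gene-end share gave 3 loci higher, and 0 regions and 0 ends in either direction. Loci without the flank gave 4 higher, and windows of 1000 bp gave 1 end higher and 2 lower. The replicate block gave 16 regions lower, and 3 ends higher and 2 lower, and changed no call at a member. Leaving out each library gave 0 to 60 loci higher and 0 to 90 lower, 1 to 835 regions higher and 1 to 1578 lower, and 0 to 888 ends higher and 0 to 114 lower. Called members ranged over 0 to 1 loci higher, 0 to 2 regions higher, 0 to 1 regions lower and 0 to 3 ends higher. The cause of these changes was not tested.

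Among the named genes and regions, gains that changed sign were those of the Ikzf1 locus (-0.64), the Flt1 body region (-0.26) and the Pdgfra flank region (0.46) under the gene-end covariate, and of the Col1a1 end (0.14) with windows of 1000 bp. The median member gain changed sign at loci under the gene-end covariate (-0.16), without KO replicate 2 (-0.046), without WT replicate 2 (-0.029), and with a rank list of 50000 or an interval in all 6 libraries (both -0.0081). At ends it did so under the covariate (-0.45) and without KO replicate 2 (-0.0018). The lists do not state read depth, and a closed locus is one with no interval within rank 100000, beyond which some lists still held weak intervals at all 3 closed loci.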
